A study of Mus musculus with 6 samples.

Results

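The genes encoding the oxidative phosphorylation machinery were taken by name from the array annotation: symbols that start with Nduf, Uqcr, Atp5, or Cox followed by a digit, together with Sdha, Sdhb, Sdhc, Sdhd, Cyc1, Cycs and Cyct. The rule found 99 genes among the 19057 named on the array, with 153 probes, and used no measured change. Of these, 87 genes were kept, out of 11601 kept genes in all, because 2 or more of the 5 mice had a detection p under 0.05 for at least 1 of their probes. The symbol rule also brings in proteins that build the complexes without being part of them, so the 87 genes comprise 69 subunits of complexes I to V, cytochrome c, 16 assembly or supercomplex factors and the pseudogene Ndufs5-ps.

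The 5 animals were male C57/129 mice. The control group was 2 mice injected intraperitoneally with vehicle daily and the JQ1 group 3 mice given JQ1 at 50 mg/kg daily, both for 6 weeks, from 6 to 12 weeks of age. JQ1 is a small molecule that occupies the acetyl-lysine pocket of the BET bromodomain proteins, to which the testis protein BRDT belongs, and the comparison asked how 6 weeks of it changed the transcripts of the testis. Total RNA of whole testis, a mixture of germ cells of every stage with Sertoli, Leydig, peritubular and blood cells, was hybridised to 1-colour bead arrays. RNA of control mouse 1 was run on 2 arrays, which were averaged and counted as 1 sample.

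Oxidative phosphorylation joins electron transport to ATP synthesis at the inner mitochondrial membrane. Complex I and complex II pass electrons to ubiquinone, complex III passes them on to cytochrome c, complex IV (cytochrome c oxidase) hands them to oxygen, and complex V (ATP synthase) uses the proton gradient that complexes I, III and IV build. Male germ cells express their own isoforms of several of these proteins, among them cytochrome c of the testis (Cyct) and the complex IV subunits Cox6b2, Cox8c and Cox7b2, in addition to or in place of the somatic forms found in other tissues.

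Signals below are normalized log2 signals, each gene represented by its brightest kept probe, and changes are log2 fold changes of JQ1 over control from limma with Benjamini-Hochberg adjustment over all kept probes. A gene is called higher or lower where the adjusted p was under 0.05. The median raw signal was 142.2 and 121.5 on the arrays of control mouse 1 and 101.8 on that of control mouse 2. On the arrays of JQ1 mice 1, 2 and 3 it was 105.8, 104 and 106.3. Probes detected numbered 17799, 18918 and 18445 on these control arrays and 19623, 20326 and 20116 on the JQ1 arrays. Every control array thus detected fewer probes than every JQ1 array, and the part of this in the changes was not tested. Over the probes of these genes, the arrays of the technical pair differed with an SD of 0.13 and the control mice with an SD of 0.20. Quantile normalization sets every array to a common distribution, so a value is relative to the other signals of its array and is not an amount of RNA. In bulk tissue, fewer cells of a type and less RNA per cell cannot be told apart.

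Of the 87 genes, 26 were higher and 8 lower in JQ1-treated testes, and 53 did not pass the test. The 26 higher genes were 29.9% of the group, where 25.3% of all genes tested were higher, and the 8 lower genes were 9.20%, where 21.7% of all genes were lower. The median change of the group was 0.18, against 0.0033 over all genes, and 59 of the 87 values lay above 0. The share of higher genes stood above that of all genes or below it depending on the processing. With cyclic loess in place of quantile normalization 37 were higher and 5 lower (42.5% higher, against 28.2% of all genes), with median scaling 19 and 9 (21.8% against 27.1%), and without the variance trend 20 and 8 (23.0% against 24.7%). Large changes were few: 5 genes rose at least 2-fold (Cox7a1, Cycs, Cox15, Ndufa4 and Cox6b1), which is 5.75% of the group against 8.54% of all genes, and 0 fell as far, against 2.88%.

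All 3 JQ1 mice lay above both control mice for 38 of the 87 genes (43.7%, against 34.3% of all genes) and below both for 12 (13.8%, against 32.1%). The groups overlapped for the other 37. The 3 treated animals were not equally far from the controls: the median deviation from the control mean was 0.044 in JQ1 mouse 1, 0.22 in JQ1 mouse 2 and 0.19 in JQ1 mouse 3. Without JQ1 mouse 1, 34 genes were higher and 7 lower. Without control mouse 1, 18 were higher and 0 lower, so each of the 8 lower calls needed that animal.

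The split by complex is shown in the plot of changes. Of the 5 complexes, complex IV held the highest share of called subunits, with 6 of 12 higher (50.0%), 2 lower (16.7%) and a median of 0.34. In complex III 3 of 7 were higher (42.9%) and 0 lower (median 0.27), and in complex V 4 of 14 (28.6%) and 0 (0.23). Complex I had 7 of 33 higher (21.2%) and 1 lower (0.11), and complex II 1 of 3 (33.3%) and 0 (0.04). Of all genes 25.3% were higher and 21.7% lower, so the higher share of complex I was below that of all genes. Across the 69 subunits and cytochrome c together, 22 of 70 were higher (31.4%) and 3 lower (4.29%), with a median of 0.20. Of the 16 assembly and supercomplex factors 4 were higher, close to the 25.3% of all genes, and 5 lower (31.3%, against 21.7%), with a median of 0.03, and no difference from the subunits was tested.

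**Figure D1:**
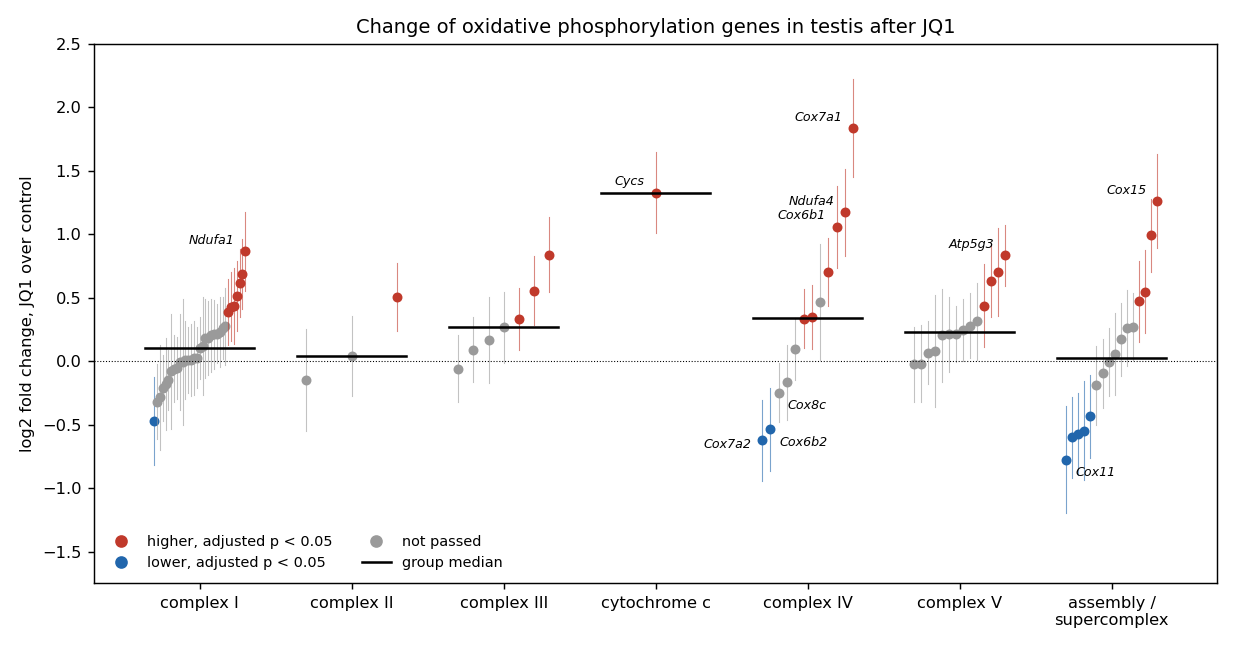
Log2 fold change of each kept gene (JQ1 over control, points) with its 95% confidence interval from the limma fit (vertical lines), grouped by complex; red points are higher and blue points lower at an adjusted p under 0.05, grey points did not pass, and black bars are group medians. Complex IV spans the widest range, from -0.62 for Cox7a2 to 1.84 for Cox7a1, while 25 of the 33 complex I genes did not pass.

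**Figure D2:**
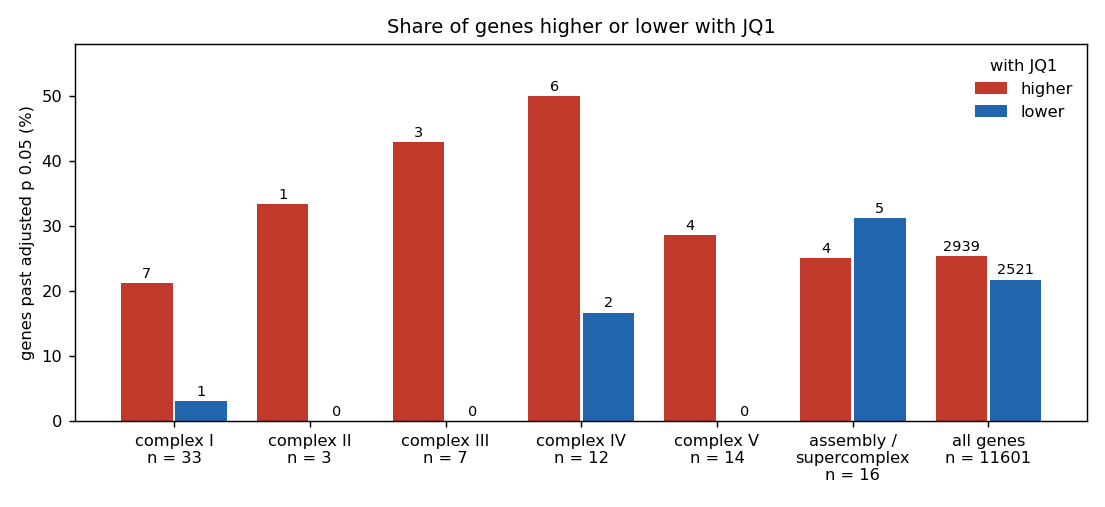
Share of kept genes in each group that was higher (red) or lower (blue) with JQ1 at an adjusted p under 0.05, in percent, with the number of genes above each bar and the number tested under it; cytochrome c, a single gene, is left out. The lower share was 0 in complexes II, III and V, 3.03% in complex I, 16.7% in complex IV and 31.3% among assembly and supercomplex factors, against 21.7% of all genes.

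Subunit VIb of complex IV was the one position at which both a testis and a somatic isoform were measured. This small subunit lies on the intermembrane side, between the monomers of the complex IV dimer. The somatic form, Cox6b1, and the testis form, Cox6b2, are both encoded on chromosome 7. Their promoters are shown because the isoforms moved in opposite directions: each line is 250 bases before and 50 bases after the transcription start, from RefSeq on GRCm38.p6, 5′ to 3′ on the strand of the gene, with matches to the motifs searched, on either strand, in capitals. Cox6b2 lies at chr7:4753045-4753344 and Cox6b1 at chr7:30626065-30626364, both on the minus strand.
Cox6b2: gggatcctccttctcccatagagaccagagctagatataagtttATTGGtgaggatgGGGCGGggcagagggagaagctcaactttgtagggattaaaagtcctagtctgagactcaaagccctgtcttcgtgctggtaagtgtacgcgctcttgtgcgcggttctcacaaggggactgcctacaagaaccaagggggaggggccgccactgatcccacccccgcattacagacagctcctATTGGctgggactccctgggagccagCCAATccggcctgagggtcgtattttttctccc
Cox6b1: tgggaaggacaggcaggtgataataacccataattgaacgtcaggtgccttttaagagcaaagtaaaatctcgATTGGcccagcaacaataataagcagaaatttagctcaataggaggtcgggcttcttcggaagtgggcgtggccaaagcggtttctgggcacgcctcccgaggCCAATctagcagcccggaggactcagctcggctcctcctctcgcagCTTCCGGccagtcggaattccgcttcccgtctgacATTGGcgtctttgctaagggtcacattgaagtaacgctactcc
The capitals mark 3 CCAAT boxes (CCAAT) and a GC box (GGGCGG) for Cox6b2, and 3 CCAAT boxes and 1 ETS-type match (CCGGAAG) for Cox6b1. A match is a run of letters and not a measured binding site.

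The log2 signal of Cox6b1 was 9.67 and 9.97 in control mice 1 and 2, and 10.59, 11.07 and 10.98 in JQ1 mice 1, 2 and 3. The somatic isoform thus lay higher in every treated mouse than in either control. It rose 2.09-fold (9.82 ± 0.21 SD, n = 2, to 10.88 ± 0.26 SD, n = 3; log2 fold change 1.06 ± 0.15 SE, limma adjusted p = 3.45e-05), and its second probe rose by 0.85.

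The log2 signal of Cox6b2 was 11.17 and 10.81 in the control mice and 10.63, 10.59 and 10.15 in the JQ1 mice. The testis isoform lay below both controls in each treated mouse, with JQ1 mouse 3 lowest. It fell 1.45-fold (10.99 ± 0.25 SD, n = 2, to 10.45 ± 0.27 SD, n = 3; log2 fold change -0.54 ± 0.16 SE, limma adjusted p = 0.00978), and its second probe gave -0.42 (adjusted p = 0.0407). The call was lost without control mouse 1 (-0.36, adjusted p = 0.179) and without JQ1 mouse 3 (-0.38, adjusted p = 0.0561), with the direction kept.

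Subtracting Cox6b1 from Cox6b2 within each mouse compares how far the isoforms moved apart. The difference was 1.50 and 0.85 in the control mice and 0.04, -0.48 and -0.83 in the JQ1 mice. The treated mice did not overlap the controls. The shift of -1.60 on the log2 scale, 3.03-fold, had a two-sided exact permutation p of 0.1, the smallest that 2 mice against 3 can give. Each gene had 2 kept probes, and the 4 ways of pairing them gave shifts of -1.27 to -1.60, with no overlap between the groups in any. Both probes of Cox6b1 lay above the controls in every treated mouse and both of Cox6b2 below. The lack of overlap in each difference followed from that, so it and the permutation p add no support to the single-gene changes. Because the values come from different probes, the size of the difference within a mouse says nothing of which isoform was more abundant.

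Cox8c, the testis isoform of subunit VIII, had a log2 signal of 13.86 and 14.04 in the control mice and 13.76, 13.66 and 13.68 in the JQ1 mice. The treated mice lay just below the controls, without overlap. The change of -0.25 ± 0.11 SE (95% interval -0.48 to -0.02) did not pass (limma adjusted p = 0.0756). Over the alternatives it lay between -0.41 (median scaling, adjusted p = 0.00596) and -0.05 (cyclic loess, adjusted p = 0.733), and it also passed without background correction and without JQ1 mouse 1. The somatic partner Cox8a has no probe named in the annotation, so no difference between isoforms of subunit VIII can be given. Cox8c was also set against Cox6b1, a somatic subunit of the same complex and not its isoform, after the values were seen. The difference moved by -1.31 (4.19 and 4.07 in the control mice, 3.18, 2.59 and 2.70 in the JQ1 mice, two-sided exact permutation p = 0.1). Cox6b1 itself rose by 1.06 and Cox8c changed by -0.25, so most of this shift is the rise of Cox6b1. Each gene had already set the groups apart, in opposite directions, so the p of the difference is no further support.

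For the other testis isoforms the arrays gave no measurement. The single probe of Cyct, cytochrome c of the testis, and that of Cox7b2, the testis form of subunit VIIb, were detected on 0 of 6 arrays. The same was true of Cox7b itself, and of Sdha and Ndufs1, catalytic subunits of complexes II and I that cells with mitochondria use, so an undetected probe here does not show that its transcript was absent. In all 12 of the 99 genes were not kept: Atp5k, Atp5md, Sdha, Uqcrfs1, Cox16, Cox4i2, Cyct, Cox7b2, Ndufaf6, Cox7b, Ndufs1 and Cox8b. The comparison of testis with somatic isoforms therefore rests on subunit VIb alone, since Cox8c had no somatic isoform measured with it.

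Somatic cytochrome c (Cycs), the mobile electron carrier between complexes III and IV, had the largest rise of any electron transport gene outside complex IV. Its promoter at chr6:50566520-50566819 (minus strand, GRCm38.p6) is given because it is the somatic partner of the undetected testis form, with a CRE (TGACGTCA), a CCAAT box and a GC box in capitals.
Cycs: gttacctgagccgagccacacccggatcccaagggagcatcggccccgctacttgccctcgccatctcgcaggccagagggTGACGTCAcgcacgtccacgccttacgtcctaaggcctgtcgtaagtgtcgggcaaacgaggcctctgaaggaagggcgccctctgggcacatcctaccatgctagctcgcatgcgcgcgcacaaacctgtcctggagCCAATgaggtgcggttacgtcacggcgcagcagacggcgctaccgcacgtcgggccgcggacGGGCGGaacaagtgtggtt
The log2 signal of Cycs was 9.43 and 9.54 in the control mice and 10.52, 10.86 and 11.06 in the JQ1 mice. Every treated mouse was well above both controls, with JQ1 mouse 1 nearest to them. It rose 2.51-fold (9.49 ± 0.07 SD, n = 2, to 10.82 ± 0.28 SD, n = 3; log2 fold change 1.33 ± 0.15 SE, limma adjusted p = 3.49e-06). A second, dimmer kept probe gave 0.40 (adjusted p = 0.114).

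Cox7a1, the heart and skeletal muscle form of subunit VIIa, changed most of the 87 genes, and its widely expressed counterpart Cox7a2 moved the other way. The promoters of this pair, shown for the same reason as those of subunit VIb, lie at chr7:30183921-30184220 (plus strand) for Cox7a1 and chr9:79759804-79760103 (minus strand) for Cox7a2, with 2 CCAAT boxes in the first and 1 GC box in the second.
Cox7a1: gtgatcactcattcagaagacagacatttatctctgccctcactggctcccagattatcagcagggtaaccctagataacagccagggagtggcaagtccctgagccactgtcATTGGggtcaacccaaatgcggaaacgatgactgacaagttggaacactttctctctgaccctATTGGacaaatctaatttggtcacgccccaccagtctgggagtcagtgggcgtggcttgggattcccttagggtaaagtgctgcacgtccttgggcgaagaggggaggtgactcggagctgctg
Cox7a2: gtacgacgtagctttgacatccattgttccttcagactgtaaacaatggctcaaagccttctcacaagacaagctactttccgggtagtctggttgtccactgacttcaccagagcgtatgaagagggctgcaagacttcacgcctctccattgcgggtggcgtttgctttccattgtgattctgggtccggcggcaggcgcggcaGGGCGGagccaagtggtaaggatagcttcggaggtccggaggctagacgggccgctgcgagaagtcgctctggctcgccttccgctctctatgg
The log2 signal of Cox7a1 was 6.13 and 6.42 in the control mice and 7.82, 8.17 and 8.33 in the JQ1 mice. The groups lay far apart, and the probe was detected on every array. It rose 3.57-fold (6.27 ± 0.20 SD, n = 2, to 8.11 ± 0.26 SD, n = 3; log2 fold change 1.84 ± 0.18 SE, limma adjusted p = 8.84e-07).

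The log2 signal of Cox7a2 was 8.96 and 8.77 in the control mice and 8.20, 8.15 and 8.38 in the JQ1 mice. It was lower in each treated mouse and fell 1.54-fold (8.87 ± 0.14 SD, n = 2, to 8.24 ± 0.12 SD, n = 3; log2 fold change -0.62 ± 0.15 SE, limma adjusted p = 0.00287). Without control mouse 1 the change was -0.53 (adjusted p = 0.0561). The difference of Cox7a1 minus Cox7a2 within a mouse was -2.84 and -2.35 in the controls and -0.38, 0.02 and -0.05 after JQ1, without overlap. This shift of 2.46, or 5.50-fold, had a two-sided exact permutation p of 0.1, again the smallest possible. Since the groups were apart for each gene in opposite directions, neither this p nor the lack of overlap is further support.

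**Figure D3:**
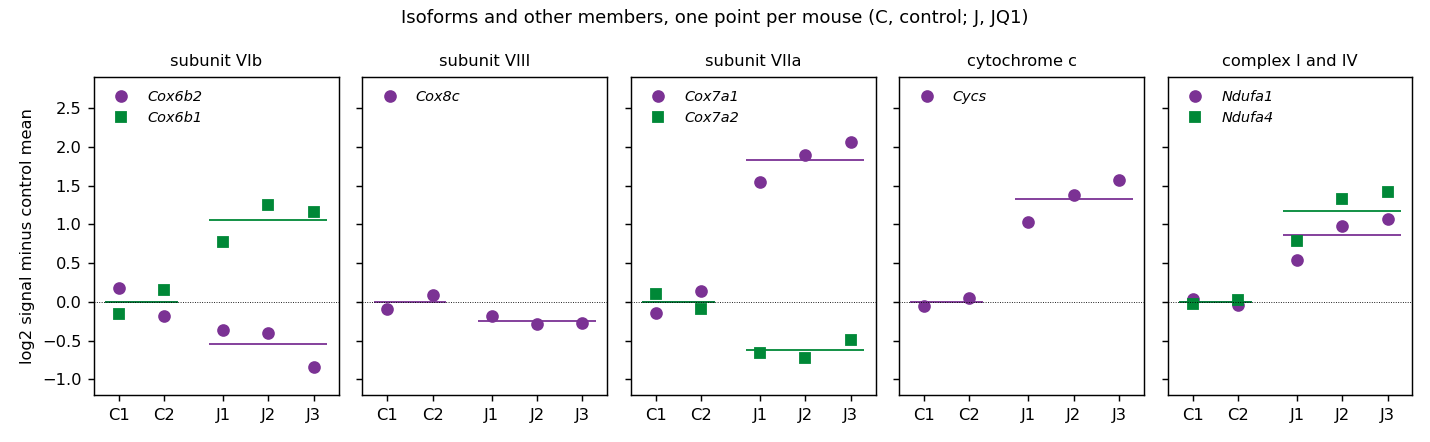
Log2 signal of isoforms and other genes in each mouse minus the mean of the 2 control mice (C1, C2, control; J1 to J3, JQ1), with horizontal lines at group means. Cox6b1, Cox7a1, Cycs, Ndufa1 and Ndufa4 lie above both controls in all 3 JQ1 mice and Cox6b2, Cox7a2 and Cox8c below, Cox8c by only 0.25 on average.

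Markers of other cells in whole testis were read beside these genes. Over all genes, 25.3% were higher and 21.7% lower. Of 11 measured Sertoli cell markers 9 were higher and 0 lower (median 1.25), and their summed linear signal was 12258 to 13689 in the control mice and 31530 to 37494 in the JQ1 mice. All 5 Leydig cell markers were higher (median 1.14, sums 9264 to 10871 against 19376 to 26905), while Amh, Hsd3b1 and Hsd3b6 of these lists were not kept. Such sums are led by the brightest probes. For Leydig cells these were Insl3 and Cyp17a1 (control means 12.86 and 11.22), and for pachytene spermatocytes below Ldhc (15.08). Higher were also 5 of 7 spermatogonia, 5 of 6 macrophage and 3 of 4 erythroid markers, and 0 of 6 endothelial ones. Of the spermatogonia list, Zbtb16 (-0.06, adjusted p = 0.827) and Stra8 (0.36, adjusted p = 0.203) did not pass, and Dmrt1, Gfra1 and Nanos3 were not kept. Markers of later germ cells stood the other way or did not pass. Of 7 pachytene spermatocyte markers 0 were higher and 3 lower (median -0.30, sums 89091 to 99514 against 77569 to 82541), and of 11 round spermatid markers 0 and 4 (median -0.15, sums 49796 to 50717 against 42510 to 45777). The 11 elongating spermatid markers gave 0 calls in either direction. Mybl1, Sycp3 and Tssk1 of these later germ cell lists and all 6 epididymis markers on the array were not kept. The part of these shifts in the changes of the somatic and testis isoforms was not tested.

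For Cox7a1 the muscle lists are the closest to its known place of expression. The skeletal muscle markers Acta1, Ckm, Myh1, Myh4, Tnnc2 and Tnnt3 were not kept, since fewer than 2 mice had a detected probe, and Mylpf, the 1 of 7 that was kept, overlapped between the groups (0.14, adjusted p = 0.63). Of 5 measured smooth muscle and peritubular markers 3 were higher and 1 lower (median 0.69, sums 8574 to 9849 against 11424 to 12665), with Cnn1, Lmod1 and Tagln not kept. The brightest of the 5 were Actg2, which fell (-0.43), and Acta2, which rose (1.16). Of the adipocyte markers, Cidec, Fabp4, Plin1, Retn and Ucp1 were not kept, Cidea was higher (1.09), Adipoq did not pass (0.10), and the sums were 744 to 746 against 915 to 1063. The part of these cells in the rise of Cox7a1 was not tested. The muscle form of subunit VIa, Cox6a2, was detected on no control array and on 2 of 3 JQ1 arrays. At 4.60 and 4.98 in the control mice against 4.99, 5.40 and 5.36 after JQ1 it was too close to background for a fold to be given, and the test was not passed (limma adjusted p = 0.0881).

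The remaining complex IV subunits that rose were somatic or shared forms. Ndufa4, first assigned to complex I and later recognised as a complex IV subunit, measured 9.76 and 9.81 in the control mice and 10.57, 11.11 and 11.20 in the JQ1 mice. The treated mice were higher without overlap, with JQ1 mouse 1 nearest the controls, and the rise was 2.26-fold (9.79 ± 0.04 SD, n = 2, to 10.96 ± 0.34 SD, n = 3; log2 fold change 1.17 ± 0.16 SE, limma adjusted p = 2.21e-05). Cox6a1, the widely expressed form of subunit VIa, rose by 0.70 ± 0.13 SE (adjusted p = 0.000267). The changes of Cox4i1, the main form of subunit IV (0.35, adjusted p = 0.0253), and Cox5b (0.33, adjusted p = 0.0206) were small, and each call was lost in several alternatives, Cox4i1 falling to 0.12 (adjusted p = 0.444) with median scaling. Cox5a (0.10) and Cox6c (-0.17) overlapped between the groups.

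Complex I, the NADH dehydrogenase at the entry of the chain, has the most subunits, and 25 of its 33 genes did not pass. The 7 higher genes were Ndufa1, Ndufa10, Ndufab1, Ndufa3, Ndufc2, Ndufs7 and Ndufv3. Ndufa1, a small X-linked membrane-arm subunit, measured 10.50 and 10.42 in the control mice and 11.01, 11.44 and 11.53 in the JQ1 mice. It was higher in each treated mouse, rising 1.82-fold (10.46 ± 0.06 SD, n = 2, to 11.33 ± 0.28 SD, n = 3; log2 fold change 0.87 ± 0.15 SE, limma adjusted p = 0.000157). Of all 416 measured genes of the X chromosome, 205 (49.3%) were higher, with a median of 0.46, and the other X-linked complex I gene kept, Ndufb11, was at -0.01 on a dim probe.

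Ndufa10, an accessory subunit with a nucleoside kinase fold, rose by 0.69 ± 0.13 SE (adjusted p = 0.000447), and Ndufab1, the mitochondrial acyl carrier protein that is also bound to complex I, by 0.62 ± 0.13 SE (adjusted p = 0.000772). Both remained past the test in every alternative tried. The dimmer kept probes of Ndufab1 gave 0.37 (adjusted p = 0.0322) and 0.26 (adjusted p = 0.107). Those of Ndufv3 gave 0.29 (adjusted p = 0.094) and 0.23 (adjusted p = 0.372). The changes of Ndufa3 (0.51), Ndufc2 (0.44), Ndufs7 (0.43), which holds the last iron-sulfur cluster before ubiquinone, and Ndufv3 (0.39) were smaller, and each lost its call in 1 to 3 of the 5 fits that left out a mouse. Ndufb5, a membrane-arm subunit, was the 1 lower gene (8.02 and 7.90 in the control mice, 7.30, 7.50 and 7.67 in the JQ1 mice; log2 fold change -0.47 ± 0.17 SE, limma adjusted p = 0.0282), and its call was lost in 4 of those fits. The other 25 complex I genes ranged from -0.32 (Ndufa12) to 0.28 (Ndufs8). The core subunits Ndufv1 (0.26), Ndufv2 (-0.15), Ndufs3 (0.03) and Ndufs8 were among them.

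In complex II, succinate dehydrogenase, the membrane anchor Sdhc measured 10.20 and 10.10 in the control mice and 10.59, 10.74 and 10.63 in the JQ1 mice. It was higher in every treated mouse (log2 fold change 0.50 ± 0.13 SE, limma adjusted p = 0.00379), while the iron-sulfur subunit Sdhb (0.04) and the second anchor Sdhd (-0.15) overlapped between the groups. In complex III, Cyc1, the cytochrome c1 that reduces cytochrome c, measured 9.11 and 9.02 against 9.78, 9.87 and 10.06. It rose 1.79-fold (9.06 ± 0.06 SD, n = 2, to 9.90 ± 0.14 SD, n = 3; log2 fold change 0.84 ± 0.14 SE, limma adjusted p = 0.000121), and passed in every alternative. The small accessory subunits Uqcr11 (0.56, adjusted p = 0.00191) and Uqcr10 (0.33, adjusted p = 0.0264) also rose. The call of Uqcr10 was lost in 4 other settings, median scaling among them (0.12, adjusted p = 0.438), and in 3 of the 5 fits that left out a mouse. The core proteins Uqcrc1 (-0.06) and Uqcrc2 (0.09) and the small subunits Uqcrh (0.27) and Uqcrq (0.17) did not pass.

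In complex V the genes called higher belonged to the membrane sector, apart from the stalk subunit Atp5pb, whose probes disagreed. Atp5g3, which encodes the proton-carrying c subunit of the rotor, measured 12.84 in both control mice and 13.53, 13.70 and 13.79 in the JQ1 mice. The groups did not overlap, and the rise was 1.78-fold (12.84 ± 0.0036 SD, n = 2, to 13.67 ± 0.13 SD, n = 3; log2 fold change 0.83 ± 0.11 SE, limma adjusted p = 1.99e-05). Atp5g2, a second gene for the same mature c subunit, rose by 0.70 ± 0.16 SE (adjusted p = 0.00214) and Atp5l, subunit g of the membrane sector, by 0.64 ± 0.14 SE (adjusted p = 0.00118). The catalytic subunits Atp5b (0.22, 95% interval -0.0043 to 0.43) and Atp5a1 (0.20, -0.16 to 0.57) did not pass, although all 3 JQ1 mice lay above both control mice for each. The other 8 subunits that did not pass ranged from -0.02 (Atp5o) to 0.31 (Atp5h). For the peripheral stalk subunit b, Atp5pb, the 3 kept probes disagreed. The brightest gave 0.44 (adjusted p = 0.0289), another 0.14 (adjusted p = 0.438) and the dimmest -0.54 (adjusted p = 0.0131). With the mean of all kept probes the change was 0.013 (adjusted p = 0.944), so the direction of this gene is uncertain. It was the 1 gene of the 26 with several kept probes to be called in both directions, and 18 of the 26 had probes of a single sign. In complex I, Ndufs6 and Ndufb6, named after their values were seen, did not pass by their brightest probe (0.11 and 0.20), while a dimmer kept probe of each was lower (-0.70, adjusted p = 0.00163, and -0.46, adjusted p = 0.0434), so their direction is uncertain too.

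**Figure D4:**
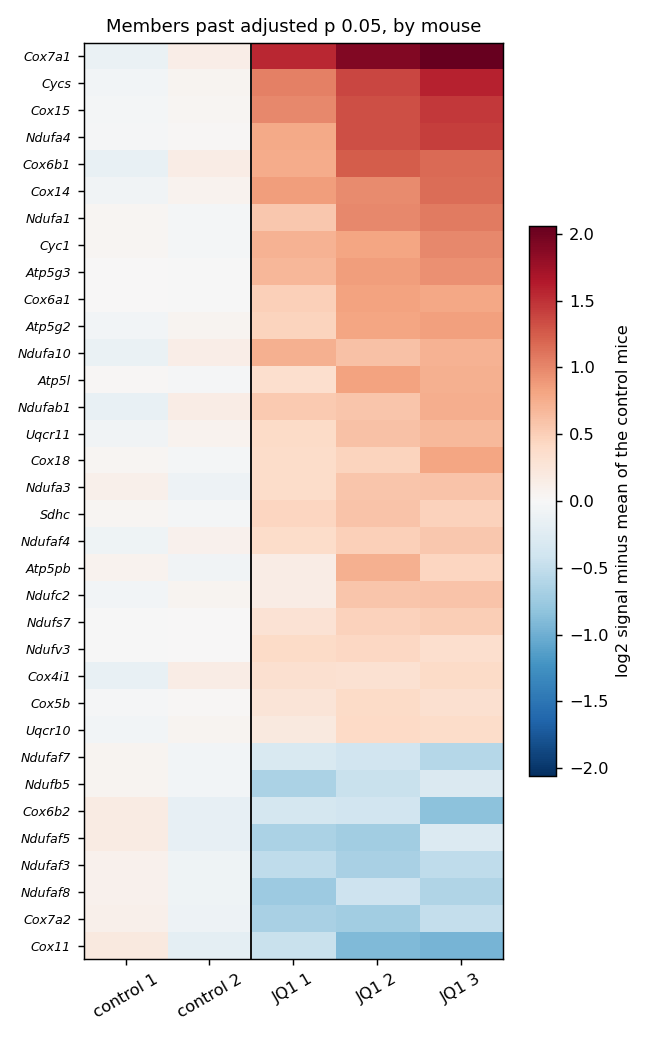
The 34 genes past an adjusted p of 0.05, ordered by change, with the log2 signal of each mouse minus the mean of the 2 control mice in colour (red higher, blue lower). Among the 26 higher genes the colour of JQ1 mouse 1 is mostly paler than that of JQ1 mice 2 and 3.

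The 16 assembly and supercomplex factors went both ways, and those for complex IV included both the strongest rise and the strongest fall. Cox15, which makes haem A for Cox1, measured 6.55 and 6.65 in the control mice and 7.59, 7.93 and 8.06 in the JQ1 mice. It was higher without overlap, 2.40-fold (6.60 ± 0.07 SD, n = 2, to 7.86 ± 0.24 SD, n = 3; log2 fold change 1.26 ± 0.18 SE, limma adjusted p = 2.46e-05). Cox14, needed for the first steps of Cox1 assembly, measured 9.39 and 9.55 against 10.33, 10.44 and 10.61 (log2 fold change 0.99 ± 0.14 SE, adjusted p = 2.07e-05), and Cox18, which inserts Cox2 into the membrane, rose by 0.55 (adjusted p = 0.00813).

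Cox11, which delivers copper to Cox1, measured 7.34 and 6.94 in the control mice and 6.69, 6.23 and 6.18 in the JQ1 mice. It lay below both controls in each treated mouse, 1.71-fold lower (7.14 ± 0.28 SD, n = 2, to 6.37 ± 0.28 SD, n = 3; log2 fold change -0.77 ± 0.20 SE, limma adjusted p = 0.00445), and without control mouse 1 the change was -0.57 (adjusted p = 0.0849). The other 4 lower factors serve complex I. Ndufaf8 (-0.60, adjusted p = 0.00387) and Ndufaf5 (-0.55, adjusted p = 0.023), known from human cells as partners in the hydroxylation of Ndufs7, fell together. Ndufaf3 fell (-0.57, adjusted p = 0.00579) while Ndufaf4, its binding partner in early complex I assembly, rose (0.47, adjusted p = 0.0171), and the methyltransferase Ndufaf7 fell (-0.43, adjusted p = 0.0296). The calls of Ndufaf5 and Ndufaf7 were lost in 3 and 4 of the 5 fits that left out a mouse. The copper chaperone Cox17 (0.27) and the supercomplex factor Cox7a2l (0.26) did not pass, and the other 5 factors lay between -0.19 (Cox19) and 0.17 (Ndufaf1). The pseudogene Ndufs5-ps was at -0.01.

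Genes of neighbouring mitochondrial pathways were read from lists outside the symbol rule. Both carriers that were kept rose: the ADP/ATP carrier Slc25a5 (10.41 and 10.77 in the control mice, 11.67, 12.09 and 12.41 in the JQ1 mice; log2 fold change 1.47) and the phosphate carrier Slc25a3 (0.48). The testis carrier Slc25a31 and the testis pyruvate dehydrogenase subunit Pdha2 were not kept. Their somatic counterparts Slc25a5 and Pdha1 (0.80) were higher. Both are X-linked, as are Idh3g and Hccs below, and 49.3% of all measured X-linked genes were higher. The part of this in their rise was not tested. Of 11 tricarboxylic acid cycle genes 4 were higher (36.4%, against 25.3% of all genes) and 1 lower (9.09%, against 21.7%), with a median of 0.29. The largest changes were those of Idh3g (1.16), Suclg2 (0.89), Mdh2 (0.88) and Dlst (-0.41).

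Of 23 further respiratory chain assembly factors 6 were higher, 26.1% against 25.3% of all genes, and 0 lower, with a median of 0.32. The largest changes among them were those of Hccs (0.76), Bcs1l (0.65) and Timmdc1 (0.62). Chchd10, a small intermembrane space protein of the crista junctions, measured 10.70 and 11.06 in the control mice and 12.59, 12.54 and 12.83 in the JQ1 mice. Its rise of 1.78 was the largest of any gene on these pathway lists. Regulators of mitochondrial biogenesis went both ways, with 2 of 12 higher (Pprc1, 0.87, and Nrf1, 0.53) and 2 lower (Polg, -0.50, and Gabpb1, -0.46), and a median of -0.13. Each share was 16.7%, below the 25.3% higher and 21.7% lower of all genes. Of 6 subunits encoded in mitochondrial DNA 4 were higher (ND5, 0.79, ATP6, 0.71, ND1, 0.51, and ND4, 0.36) and 0 lower, although ND5 and ND1 overlapped between the groups. The higher share was 66.7%, against 25.3% of all genes.

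The promoters of the group were searched for motifs of known regulators of respiratory genes, on both strands. RefSeq windows were available for 72 of the 87 genes, 77 windows in all, against 32851 windows of all genes. The latter were not filtered for detection in testis, so the shares do not compare these genes with the other kept genes. The NRF1 motif (GCGCA and GCGC with any base N between them) was found in 22.1% of the windows of these genes and in 4.60% of all windows, the ETS-type motif that GABP can bind (CCGGAAG) in 26.0% and 8.86%, and the CRE (TGACGTCA) in 5.20% and 1.79%. The GC box (GGGCGG) stood in 50.6% and 35.7%, the CCAAT box in 40.3% and 37.4%, and the TATA box (TATAAA) in 9.09% and 13.6%. For the ERR element (TCAAGGTCA) the shares were 2.60% and 0.423%. By outcome, the NRF1 motif was in 18.2% of the 22 windows of higher genes, 12.5% of the 8 of lower genes and 25.5% of the 47 of genes that did not pass, and these shares are a description with no test. The 5 promoters printed above held 0 exact matches to it. Near matches were not searched for, so the near match named next has no rate in other windows to be set against. The Cycs window holds tcgcatgcgc, which departs from the motif only at its first base.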

How the data were processed

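Total testis RNA of 5 mice was measured on 6 bead arrays of 45281 probes. The authors deposited, for each probe and array, the raw linear intensity, not background-subtracted, and a detection p-value that the authors' scanner software gave against negative control beads. The authors also deposited a background-subtracted and normalized intensity, which served as an alternative. The scanner software and the order of those steps are not stated in the sources used.

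In R 4.3.3 with limma 3.58.1, raw intensities were corrected by normexp (offset 16, negative controls estimated from detection p-values), then quantile normalized and taken to log2. The arrays of the technical pair were averaged. Kept were 20554 probes detected (p under 0.05) in 2 or more mice, and linear models with an intensity trend were fitted to all of them, with Benjamini-Hochberg adjustment. The fit was tested on simulated data. A gene stands by its brightest kept probe, and one detected on no array of a group gets a bound or no fold. Names come from the platform annotation (34885 probes with 1 symbol, 18 with several, 10378 with none), updated through RefSeq on GRCm38.p6. The replicates are separate mice, and their number limits the precision.

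The genes named follow a rule: isoform pairs, genes past 2-fold, up to 3 of the largest changes in each direction per complex or pathway list, genes with probes called in opposite directions, and undetected defining markers. Other members were named after their values were seen. The members, isoform pairs and lists were chosen with earlier results of these data known. Pairs were compared per mouse by an exact permutation test. Alternatives changed the background correction, normalization, filter, probe choice, variance model and the mice used. No sample column was left unassigned.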

Additional observations from a re-analysis of the deposited data

How the results depend on the processing

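Of the 34 genes called, 24 were called in each of the 12 alternatives other than leaving out a mouse, 16 in all 5 fits without 1 mouse, and 0 turned in sign in any. The count of higher genes was 37 with cyclic loess, 19 with median scaling and 20 without the variance trend. Leaving out each mouse in turn gave 18 to 34 higher genes, 4 to 7 of them at least 2-fold, 0 to 7 lower genes, a median change of 0.14 to 0.24, and a shift of Cox6b2 against Cox6b1 of -1.93 to -1.27. At least 2-fold higher were 3 genes without background correction and 3 with the mean of all kept probes. With cyclic loess 5 genes were lower, of any size, and 0 of them 2-fold. The median change was 0.29 with cyclic loess and 0.081 with median scaling, where the median of all genes was 0.076 and 0.048. The mice share replicate numbers across groups, but same-numbered mice deviated together only weakly (r = 0.15 for number 1 and 0.022 for number 2, across probes, which are not independent replicates), so the number was not taken as a pairing. With it as a replicate block, 24 genes were higher and 7 lower, the median change was 0.16 and the shift of Cox6b2 against Cox6b1 was -1.39. With 2 and 3 mice, the smallest changes called were those of Uqcr10 and Cox5b, both 0.33. Probes near background, such as those of Cox6a2, Ndufb11 and Ndufb4, limit what can be said of their genes.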
